A study of Mus musculus with 24 samples.

Results

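A set of 8 genes of tendon, joint lining and related stroma was followed across TC2Ras prostate tumors in mice treated with cabozantinib (cabo) and IL-27. The set was Prg4, Penk, Synpo2, Tnmd, Scx, Fmod, Comp and Thbs4, which are 8 of the 55401 genes counted. The genes were selected on measured values, because Prg4, Penk and Synpo2 were strongly higher with cabo at day 14 after implantation. The difference between cabo and control tumors at day 14 is therefore given as a description, with no p for these genes. Cabo over time, IL-27+cabo against cabo, IL-27 and IL-27+cabo against control and control over time reuse those cabo or control tumors and are described in the same way.

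Tendon joins muscle to bone through parallel collagen fibers that are made by tenocytes. Scleraxis (Scx) is the transcription factor that marks tendon progenitors, and tenomodulin (Tnmd) is a membrane protein of mature tenocytes that follows it. Fibromodulin (Fmod), cartilage oligomeric matrix protein (Comp) and thrombospondin 4 (Thbs4) are matrix proteins that organize collagen in tendon, and Thbs4 is also made in muscle. Lubricin (Prg4) coats joint surfaces and is made by synovial lining and superficial cartilage cells. Proenkephalin (Penk) is the precursor of the enkephalin opioid peptides and is also made by some fibroblasts, and synaptopodin 2 (Synpo2, myopodin) binds actin and filamin at the Z-disc of muscle.

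The TC2Ras line was made from TRAMP-C2 mouse prostate cancer cells by lentiviral changes that included activated H-Ras. Male C57/BL6 mice of 8 to 10 weeks received 100000 luciferase-expressing TC2Ras cells in each tibia, and all 20 intratibial tumors came from mice given a plasmid in the nearby muscle by sonoporation, either the control vector or the IL-27 vector. Mice then received cabo at 30 mg/kg or its vehicle polyvinylpyrrolidone by gavage every day for 2 weeks after implantation, so that dosing ended before later EOS tumors were taken. The groups were control (control vector and vehicle), IL-27 (IL-27 vector and vehicle), cabo (control vector and cabo) and IL-27+cabo, each with 3 tumors at day 14 and 2 tumors at the end of study (EOS), when animals reached the ethical endpoint. A further 4 tumors came from 300000 cells under the skin, harvested at 1 week, 2 with the empty vector and 2 with the IL-27 vector, and none of these mice is labelled as given cabo. All tumors derive from 1 cell line, the vector was delivered to muscle rather than to the tumor, and each intratibial library carries its own mouse number, while the subcutaneous labels do not say whether the replicates came from different mice.

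Libraries held 63729005 to 83782258 counts over 24 tumors. Markers of the labelled cell type were uneven. The epithelial keratin Krt8 had 159 to 19250 counts per tumor, whereas the prostate marker Pbsn had 0 counts in all 24 tumors. The vector's gene could not check the labels, since Il27 counts were at most 6 in all tumors given the IL-27 vector without cabo at most 18 in those given the control vector, and 0 to 43 in those given IL-27+cabo. In bulk tumors, fewer cells of a type and less RNA per cell cannot be told apart.

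Levels are given as CPM, the counts of a gene divided by the library total after TMM scaling and expressed on the usual CPM scale. Differences are log2 fold changes from edgeR's quasi-likelihood fit with the standard error (SE), and a gene was called at a Benjamini-Hochberg adjusted p under 0.05 over all genes tested in that comparison. P-values rest on 2 to 3 tumors per group and measure the spread between these tumors.

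In the mouse annotation (GENCODE M21, GRCm38), Prg4 (ENSMUSG00000006014) lies at chr1:150449412-150466165 on the minus strand and overlaps Tpr on the opposite strand. Penk (ENSMUSG00000045573, chr4:4133531-4138819, minus strand) overlaps the transcript A830012C17Rik on the opposite strand, and Scx (ENSMUSG00000034161, chr15:76457452-76459458, plus strand) overlaps Bop1 on the opposite strand. Synpo2 (ENSMUSG00000050315, chr3:123076519-123236149, minus strand) overlaps a pseudogene on the opposite strand and 3 unconfirmed transcripts on its own. Since the strand setting of the counting is not given in the sources used here, reads of these overlaps could have been counted for either gene. Tnmd (ENSMUSG00000031250, chrX:133850980-133865577, plus strand), Fmod (ENSMUSG00000041559, chr1:134037254-134048277, plus strand), Comp (ENSMUSG00000031849, chr8:70373558-70382066, plus strand) and Thbs4 (ENSMUSG00000021702, chr13:92751590-92794818, minus strand) overlap no annotated gene.

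Of the 8 genes, Synpo2, Tnmd, Fmod and Thbs4 matched RefSeq promoter sequences of build GRCm38.p6, which run from 250 bases before to 50 bases after the start of the gene. These 4 are shown because the promoter collection used held no sequence for Prg4, Penk, Scx and Comp. Capitals mark E-boxes, CANNTG on either strand, the letters that Scx and the muscle factors of the same family bind, and the MEF2 element, an A/T-rich site of muscle promoters.
Synpo2 (chr3:123236100-123236399, minus strand): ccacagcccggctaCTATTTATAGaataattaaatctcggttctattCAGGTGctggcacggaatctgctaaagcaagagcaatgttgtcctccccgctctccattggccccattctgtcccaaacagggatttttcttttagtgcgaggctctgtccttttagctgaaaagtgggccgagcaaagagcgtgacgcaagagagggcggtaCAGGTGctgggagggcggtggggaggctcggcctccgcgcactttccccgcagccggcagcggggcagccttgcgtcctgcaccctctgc
Tnmd (chrX:133850758-133851057, plus strand): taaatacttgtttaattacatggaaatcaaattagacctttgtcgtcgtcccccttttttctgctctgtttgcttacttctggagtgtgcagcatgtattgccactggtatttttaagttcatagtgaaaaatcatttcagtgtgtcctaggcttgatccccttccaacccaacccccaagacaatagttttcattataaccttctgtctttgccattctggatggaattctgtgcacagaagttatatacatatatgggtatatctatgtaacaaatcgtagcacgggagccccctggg
Fmod (chr1:134037004-134037303, plus strand): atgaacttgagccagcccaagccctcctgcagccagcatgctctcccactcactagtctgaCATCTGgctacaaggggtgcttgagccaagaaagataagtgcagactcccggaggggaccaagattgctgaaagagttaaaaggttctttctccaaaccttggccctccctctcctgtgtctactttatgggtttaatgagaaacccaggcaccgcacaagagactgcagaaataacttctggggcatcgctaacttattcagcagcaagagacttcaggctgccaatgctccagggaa
Thbs4 (chr13:92794769-92795068, minus strand): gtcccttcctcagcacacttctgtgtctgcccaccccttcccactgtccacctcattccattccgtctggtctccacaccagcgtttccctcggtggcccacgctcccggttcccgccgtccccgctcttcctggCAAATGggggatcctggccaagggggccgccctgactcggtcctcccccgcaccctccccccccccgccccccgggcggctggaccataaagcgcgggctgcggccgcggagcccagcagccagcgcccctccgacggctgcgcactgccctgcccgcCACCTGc
The Synpo2 promoter held 2 E-boxes, the first bases of which lie 203 and 40 bases before the start, and 1 MEF2 element that begins 236 bases before it. A TATAAA match on the opposite strand overlaps this MEF2 element. Among all 32851 promoters of this length, 72.3% held an E-box, 1.86% a MEF2 element and 13.6% TATAAA. Fmod held 1 E-box at 189 bases before the start, and Thbs4 held 1 at 115 bases before and 1 at 43 bases after it. No E-box, MEF2 element or TATAAA was found in the Tnmd window. The AP-1 letters TGACTCA, the CRE letters TGACGTCA and the CArG box were found in none of the 4 promoters, and 5.20%, 1.79% and 1.63% of all promoters held them. The matches are descriptions of these letters and do not show binding.

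At day 14, 6 of the 8 genes were higher in every cabo tumor than in every control tumor, and Scx and Comp overlapped between the groups. Lubricin differed most among the genes that selected the set. Prg4 measured 28.7, 29.2 and 37.2 CPM in the cabo tumors against 1.17, 1.49 and 2.33 CPM in the controls, a log2 fold change of 4.25 (SE 0.27). Penk was 105, 114 and 127 CPM against 40.2, 40.8 and 43.9 CPM, a log2 fold change of 1.47 (SE 0.10). Synpo2 was 17.0, 19.9 and 20.6 CPM against 3.30, 4.23 and 4.26 CPM, a log2 fold change of 2.29 (SE 0.16). For all 3 genes the cabo tumors lay close together and far from the controls.

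Among the tendon genes, Fmod, Thbs4 and Tnmd separated the groups, and Scx and Comp did not. Fmod was 20.4, 20.8 and 29.0 CPM with cabo and 0.810, 0.905 and 1.92 CPM in controls, a log2 fold change of 4.27 (SE 0.36). Thbs4 was 81.6, 104 and 137 CPM against 6.31, 6.84 and 25.7 CPM, a log2 fold change of 3.05 (SE 0.55). The control tumor with the highest Thbs4 also had the highest Prg4 and Fmod of its group.

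Tnmd had 27, 31 and 51 counts in the cabo tumors and 0 in all control tumors. With 3 counts per library as the floor, its mean of 0.515 CPM was at least 12.7-fold higher. Scx, which precedes Tnmd in tendon cells, was 2.58, 2.67 and 4.16 CPM with cabo and 2.43, 2.70 and 3.54 CPM in controls. Comp was 0.261, 0.542 and 0.800 CPM against 0, 0.261 and 0.419 CPM. Both genes overlapped between the groups, and Comp stayed at or under 56 counts in all 6 libraries.

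**Figure D1:**
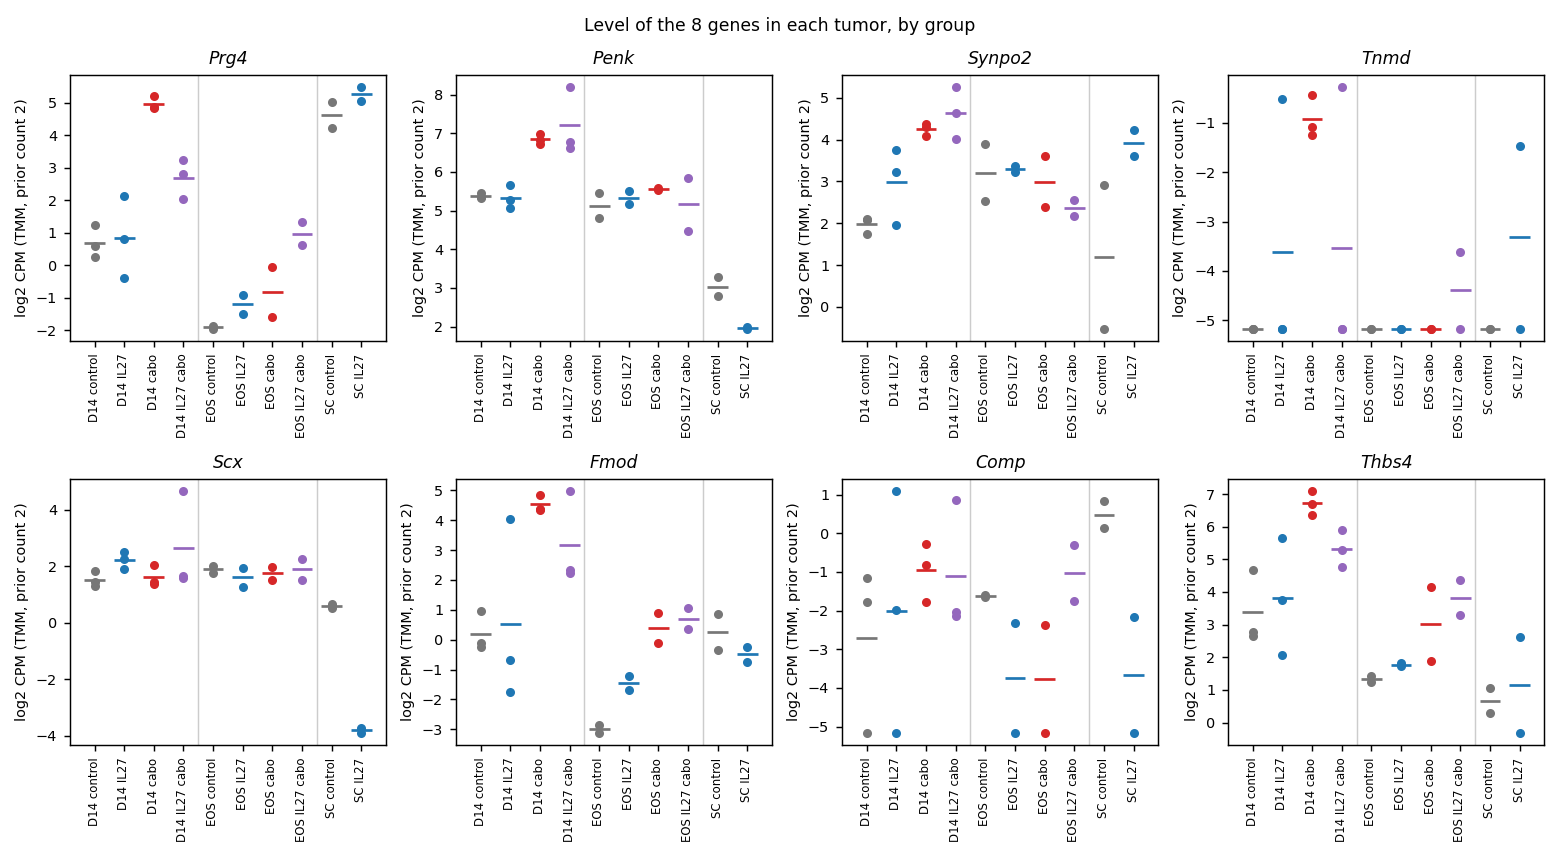
Level of each of the 8 genes in each of the 24 tumors on a log2 CPM axis (TMM, prior count 2); points are tumors, bars are group means, and vertical lines separate day 14, EOS and subcutaneous tumors. Prg4 is highest in the D14 cabo and subcutaneous tumors, and the Tnmd tumors drawn at the bottom of their panel have 0 counts.

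The edgeR fit called 6 of the 8 genes in this comparison, against 1.89% of all genes tested (352 of 18627), and 13.5% of all genes tested were likewise higher without overlap. Since this comparison chose the set, nothing is read from these counts. Markers of endothelium and skeletal muscle moved with the same contrast. Of 10 endothelial markers, 5 fell and 0 rose. Their median log2 fold change was -1.39, and they summed to 130 to 147 CPM with cabo against 210 to 333 CPM in controls, and their part in the differences of the set was not tested. The mean of 22 muscle markers was 5.22 to 5.48 log2 CPM in the cabo tumors and -1.24 to 2.52 log2 CPM in the controls. Of 21 muscle markers tested, 8 rose and 0 fell, among them Myh4 (6.07, SE 0.85), Ckm (5.14, SE 0.95) and Ttn (4.49, SE 0.64), which are proteins of the contractile fiber and its energy supply. With the muscle mean as a covariate, the log2 fold change was 1.49 for Penk, 1.86 for Synpo2, 3.41 for Prg4, 2.81 for Fmod and 0.69 for Thbs4, and 0 of the 8 genes were called, as were 0 of all genes tested. The muscle mean did not overlap between these groups, so cabo and muscle cannot be told apart in this fit.

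Whether cabo made the same difference in mice given the IL-27 vector was asked in tumors that had no part in choosing the genes. Penk and Synpo2 were higher in every IL-27+cabo tumor than in every IL-27 tumor at day 14, and the other 6 genes overlapped. Penk was 98.8, 110 and 295 CPM in the IL-27+cabo tumors and 33.7, 38.8 and 50.2 CPM in the IL-27 tumors. Its log2 fold change was 2.04 (SE 0.48, edgeR adjusted p = 0.907), and mouse 20 held the highest value. Without mouse 20 the log2 fold change was 1.35 (adjusted p = 0.189).

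Synpo2 was 16.2, 25 and 38.5 CPM against 3.87, 9.34 and 13.5 CPM, a log2 fold change of 1.57 (SE 0.53, adjusted p = 0.916). The groups were nearest between mouse 20 with cabo and mouse 8 without. Prg4 was 4.05, 6.99 and 9.50 CPM against 0.732, 1.75 and 4.36 CPM, a log2 fold change of 1.58 (SE 0.69, adjusted p = 0.916). Here the highest IL-27 tumor, mouse 8, exceeded the lowest IL-27+cabo tumor, and leaving out 1 tumor moved the value between 1.15 and 2.47.

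In this arm a single tumor lay far above the rest for Fmod in both groups and for Thbs4 in the IL-27 group. Fmod was 4.64, 4.99 and 31.6 CPM with IL-27+cabo and 0.267, 0.598 and 16.3 CPM with IL-27. Its log2 fold change was 1.26 (SE 1.5, edgeR adjusted p = 0.925). Thbs4 was 27.1, 39.2 and 59.5 CPM against 4.21, 13.5 and 50.1 CPM, a log2 fold change of 0.88 (SE 0.82, adjusted p = 0.918). In both groups and for both genes the highest tumors were mouse 20 and mouse 8. The library of mouse 20 stood apart in other ways, being the shallowest of the 24 (63729005 counts, 21269 genes with a count), with Hras at 83.3 CPM, against at most 26.5 CPM in the bone groups without it. These same animals, mouse 20 and mouse 8, were the ones with Tnmd counts, 43 and 47, and the other 4 tumors had 0.

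Scx was 2.95, 3.12 and 25.5 CPM with IL-27+cabo and 3.71, 4.75 and 5.64 CPM with IL-27, so that mouse 20 stood far above the rest and the other IL-27+cabo tumors lay below all IL-27 tumors. Comp was 0.197, 0.216 and 1.79 CPM against 0, 0.225 and 2.11 CPM, with the highest value of each group again in mouse 20 and mouse 8. The muscle mean was 5.93 log2 CPM in mouse 8 and 0.44 and 1.49 in the other IL-27 tumors, and 5.21, 6.38 and 6.94 in the IL-27+cabo tumors.

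edgeR called 0 of the 7 genes tested in this arm, and 0% of the 18570 genes tested, while 900 genes had an unadjusted p under 0.05. Of the 7 genes, 2 had an unadjusted p under 0.05 and DESeq2 called 1, Penk (adjusted p = 0.0218), and 167 genes in all. Of all genes tested, 6.56% were higher without overlap, as Penk and Synpo2 were. When mouse 20 and mouse 8 were both left out, a choice made after their values were seen, Penk (log2 fold change 1.53, adjusted p = 0.0235) and Fmod (3.48, adjusted p = 0.0328) were called. With 2 tumors a group this fit called 455 genes in all.

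**Figure D2:**
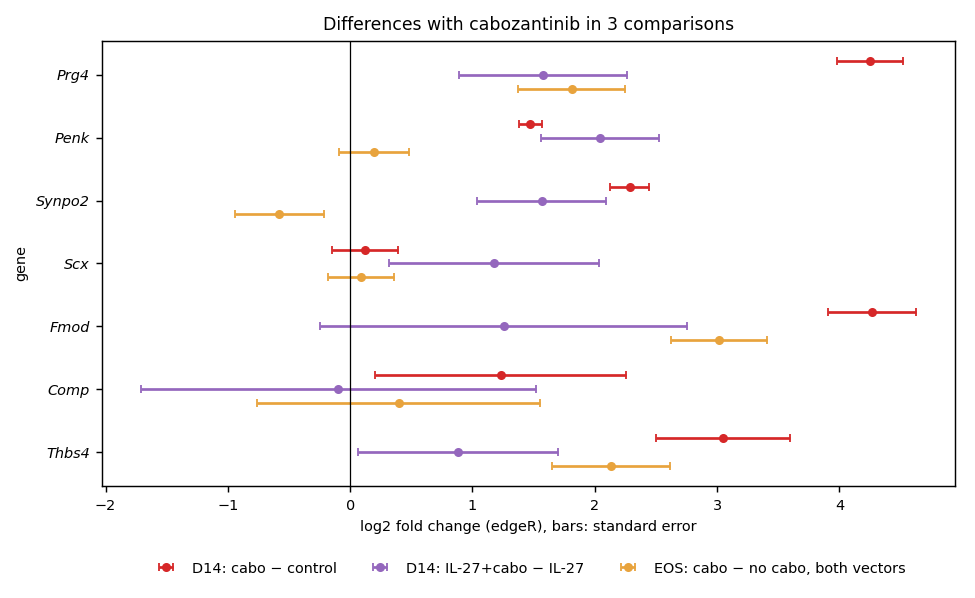
Log2 fold change with cabo for 7 of the genes in 3 comparisons, with bars of 1 standard error; Tnmd is left out because most of its libraries have 0 counts. Penk and Synpo2 are above 0 in both day 14 comparisons and near or below 0 at EOS, while Fmod and Thbs4 stay above 0 at EOS.

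IL-27 without cabo was set against control at day 14. In this comparison, which shares its control tumors with the contrast that chose the genes, Scx alone was higher without overlap, with 3.71, 4.75 and 5.64 CPM against 2.43, 2.70 and 3.54 CPM. Its log2 fold change was 0.72 (SE 0.28). Of all genes tested, 2.81% were higher without overlap. edgeR called 0 of the 7 genes tested and 0% of 18519 genes, with 2 of the 7 and 511 genes in all at an unadjusted p under 0.05, and DESeq2 called 0 of the 7 and 2 genes in all. Nothing is read from these counts.

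The combination was also set against the same control tumors, in which the genes had been chosen as low. Prg4, Penk, Synpo2, Fmod and Thbs4 were higher in all 3 IL-27+cabo tumors than in all 3 control tumors, and 7.04% of all genes tested were. The log2 fold changes were 2.09 (SE 0.46) for Prg4, 2.07 (SE 0.47) for Penk and 2.78 (SE 0.37) for Synpo2. For the matrix genes they were 3.57 (SE 0.92) for Fmod and 1.74 (SE 0.63) for Thbs4. Without mouse 20 they were 1.33 for Penk, 3.02 for Synpo2, 1.73 for Prg4, 1.99 for Fmod and 1.36 for Thbs4. Leaving out 1 tumor gave up to 2.71 for Thbs4. With the muscle mean as a covariate Thbs4 changed sign, in a fit where the muscle mean did not overlap between the groups.

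edgeR called 0 of the 7 genes tested and 0.0640% of 18750 genes, with 5 of the 7 and 1163 genes in all at an unadjusted p under 0.05, and DESeq2 called 4 of the 7 and 484 genes in all. Without mouse 20, edgeR called 2 of the 7 and 175 genes in all. Because the controls are those of the contrast that chose the genes, nothing is read from these counts. Comp and Scx overlapped with the controls, and Tnmd counts were found in 1 of the 3 IL-27+cabo tumors.

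Lubricin and Thbs4 separated the IL-27+cabo from the cabo tumors at day 14, with lower values in the former. Prg4 was 4.05 to 9.50 CPM in the IL-27+cabo tumors and 28.7 to 37.2 CPM in the cabo tumors, a log2 fold change of -2.17 (SE 0.36). Thbs4 was 27.1 to 59.5 CPM against 81.6 to 137 CPM, a log2 fold change of -1.31 (SE 0.36). Both genes were lower without overlap, as were 6.91% of all genes tested. The muscle mean was 5.21 to 6.94 log2 CPM in the IL-27+cabo tumors and 5.22 to 5.48 log2 CPM in the cabo tumors, and its part in these differences was not tested.

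Penk, Synpo2, Tnmd, Scx, Fmod and Comp overlapped between these groups. Here edgeR called 0 of the 8 genes and 0% of 18662 genes, with 2 of the 8 and 359 genes in all at an unadjusted p under 0.05. DESeq2 called 1 of the 8, Prg4, and 5 genes in all. This comparison shares its cabo tumors with the contrast that chose the genes for high values there, so nothing is read from these counts.

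At EOS the cabo difference was read over both vectors, 4 tumors with cabo against 4 without. The labels give no harvest day for EOS, and the paper reports longer survival with cabo and IL-27+cabo than in controls. Cabo and time of harvest therefore cannot be told apart in this comparison. Of the set, 0 genes passed the threshold, and Fmod had the smallest adjusted p. Fmod was 0.898 and 1.83 CPM in the cabo tumors and 1.24 and 2.07 CPM in the IL-27+cabo tumors, against 0.0869 and 0.111 CPM in the control tumors and 0.285 and 0.406 CPM in the IL-27 tumors. The log2 fold change was 3.01 (SE 0.39, adjusted p = 0.0666), and it passed without IL-27+cabo mouse 16 (3.17, adjusted p = 0.04) or cabo mouse 23 (3.23, adjusted p = 0.0496).

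Thbs4 was 3.68 and 17.7 CPM with cabo and 9.72 and 20.4 CPM with IL-27+cabo, against 2.33 and 2.68 CPM in controls and 3.26 and 3.55 CPM with IL-27. Its log2 fold change was 2.13 (SE 0.48, adjusted p = 0.115), with 1.36 to 2.49 when 1 tumor was left out and a call without cabo mouse 23 (2.49, adjusted p = 0.0483). Prg4 was 0.304 and 0.934 CPM with cabo and 1.52 and 2.48 CPM with IL-27+cabo, against 0.232 and 0.250 CPM in controls and 0.328 and 0.508 CPM with IL-27, a log2 fold change of 1.81 (SE 0.44, adjusted p = 0.123). Only 1 cabo tumor fell within the range of the tumors without cabo.

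Penk and Synpo2, which had separated both pairs of groups at day 14, overlapped between tumors with and without cabo at EOS. Penk was 46.7 and 48.0 CPM with cabo and 22.1 and 57.6 CPM with IL-27+cabo, against 28.2 to 45.4 CPM without cabo, a log2 fold change of 0.19 (SE 0.29, adjusted p = 0.786). Synpo2 was 5.20 and 12.2 CPM with cabo and 4.49 and 5.82 CPM with IL-27+cabo, against 5.72 to 14.7 CPM without cabo, a log2 fold change of -0.58 (SE 0.36, adjusted p = 0.461), with -0.95 to -0.16 when 1 tumor was left out. Scx lay between 2.39 and 4.80 CPM in all 8 EOS tumors, Comp between 0 and 0.787 CPM, and Tnmd had 4 counts in 1 tumor and 0 in the others.

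Fmod and Thbs4 were higher without overlap, as were 5.44% of all genes tested. edgeR called 0 of the 7 genes tested and 0% of 20026 genes, although 3357 genes and 3 of the 7 had an unadjusted p under 0.05. DESeq2 called 1357 genes in all, among them Prg4 (adjusted p = 0.0150), Fmod (6.36e-07) and Thbs4 (8.52e-05). Muscle markers moved with this contrast too, with a mean of 1.13 to 4.65 log2 CPM in the tumors with cabo and -1.64 to -0.25 in those without. For IL-27 over both drugs at EOS, edgeR called 0 of the 7 genes and 0% of 20026 genes, with 2 of the 7 and 675 genes at an unadjusted p under 0.05. DESeq2 called 0 of the 7 and 24 genes in all there.

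The cabo tumors at EOS were set against the day 14 cabo tumors in which the genes had been chosen as high, so these values are a description, and a fall is partly fixed by the choice. Prg4 went from 28.7 to 37.2 CPM at day 14 to 0.304 and 0.934 CPM at EOS, a log2 fold change of -5.66 (SE 0.44). Penk went from 105 to 127 CPM to 46.7 and 48.0 CPM, a log2 fold change of -1.28 (SE 0.10). Fmod went from 20.4 to 29.0 CPM to 0.898 and 1.83 CPM, a log2 fold change of -4.09 (SE 0.35).

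Tnmd, which had counts in all 3 cabo tumors at day 14, had 0 in both at EOS, at least 12.2-fold lower against the floor. Thbs4 (-3.32, SE 0.63), Synpo2 (-1.13, SE 0.34) and Comp (-2.65, SE 1.19) were also lower without overlap. Leaving out 1 tumor moved Thbs4 between -4.86 (without mouse 19) and -2.60 (without mouse 23) and Synpo2 between -1.88 and -0.65 (without the same mice). Comp moved between -8.23 and -1.68 when 1 tumor was left out, and it was at 0 counts in mouse 23. Scx alone overlapped between the times. edgeR called 4 of the 8, all lower, against 2.09% of 19144 genes in either direction and 1.14% in the lower direction, and 18.5% of all genes were lower without overlap. Nothing is read from these counts.

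In controls, Prg4 was 1.17 to 2.33 CPM at day 14 and 0.232 and 0.250 CPM at EOS (log2 fold change -2.77, SE 0.49). Fmod (-3.59, SE 0.65) and Thbs4 (-2.36, SE 0.67) were also lower without overlap. Synpo2 went the other way, from 3.30 to 4.26 CPM to 5.72 and 14.7 CPM (1.39, SE 0.39). Leaving out 1 tumor moved Synpo2 between 0.55 (without mouse 13) and 1.91 (without mouse 9), and Thbs4 between -2.68 and -1.38.

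edgeR called 0 of the 7 genes tested over time in controls and 0.104% of 19292 genes, and 18.0% of all genes were lower and 15.5% higher without overlap. Of the 7, 4 had an unadjusted p under 0.05, as did 2531 genes in all, and DESeq2 called 4 of the 7 and 872 genes in all. The day 14 controls are those of the contrast that chose the genes for low values there, so a rise from them is partly fixed by the choice and nothing is read from these counts.

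In IL-27 tumors, Prg4 was 0.732 to 4.36 CPM at day 14 and 0.328 and 0.508 CPM at EOS (-2.45, SE 0.81, adjusted p = 0.818). Thbs4 was 4.21 to 50.1 CPM and then 3.26 and 3.55 CPM (-2.74, SE 0.96, adjusted p = 0.818). Leaving out 1 tumor moved Prg4 between -2.87 and -1.58 and Thbs4 between -3.23 and -1.40. These 2 genes were lower without overlap, as were 11.7% of all genes tested. edgeR called 0 of 7 genes and 0% of 19078 genes, with 2 of the 7 and 963 genes at an unadjusted p under 0.05. DESeq2 called 0 of the 7 and 109 genes in all.

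In IL-27+cabo tumors, which the choice of genes did not use, Prg4, Penk, Synpo2, Fmod and Thbs4 were lower at EOS in both tumors than in all 3 at day 14. Penk went from 98.8 to 295 CPM to 22.1 and 57.6 CPM (-2.14, SE 0.73, adjusted p = 0.925), and Synpo2 from 16.2 to 38.5 CPM to 4.49 and 5.82 CPM (-2.37, SE 0.47, adjusted p = 0.475). Prg4 (-1.82, SE 0.56, adjusted p = 0.858), Fmod (-3.13, SE 1.11, adjusted p = 0.925) and Thbs4 (-1.51, SE 0.54, adjusted p = 0.925) had the same sign. Without mouse 20 the value was -1.54 (adjusted p = 0.308) for Fmod and -1.40 (adjusted p = 0.485) for Penk, and without mouse 28 it was -2.94 for Penk.

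Of all genes tested, 11.0% were lower without overlap over time in this group. edgeR called 0 of the 7 genes and 0% of 19365 genes, with 5 of the 7 and 742 genes at an unadjusted p under 0.05, and DESeq2 called Synpo2 (-2.34, adjusted p = 0.000512) among 330 genes in all. The muscle mean was 5.21 to 6.94 log2 CPM at day 14 and 1.13 and 2.75 at EOS. With it as a covariate the log2 fold change was 0.65 for Fmod and 1.34 for Thbs4, opposite in sign to the values above. The muscle mean did not overlap between the times, so time and muscle cannot be told apart in this fit.

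Whether the cabo difference in the IL-27 arm was smaller at EOS than at day 14 was tested by the interaction. The change of the log2 fold change from day 14 to EOS was -2.06 (SE 0.75, adjusted p = 1.00) for Penk, -2.52 (SE 0.73, adjusted p = 1.00) for Synpo2 and 0.68 (SE 0.97, adjusted p = 1.00) for Prg4. edgeR called 0 of the 8 genes and 0% of 20487 genes, with 2 of the 8 and 573 genes at an unadjusted p under 0.05. DESeq2 called 0 of the 8 and 69 genes in all. The sign was negative for Penk, Synpo2 and Scx and positive for the other 5 genes, with a median of 0.84 over the 8 genes and -0.04 over all genes tested.

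Levels under the skin were set beside those in bone. Prg4 was 18.9 and 32.4 CPM with the empty vector and 33.4 and 45.2 CPM with IL-27, against 28.7 to 37.2 CPM in the cabo tumors of bone at day 14. Penk, at 6.84 and 9.64 CPM with the empty vector and 3.83 and 3.94 CPM with IL-27, lay below every bone tumor. Synpo2 was 0.669 and 7.55 CPM with the empty vector and 12.2 and 18.7 CPM with IL-27. The sites differ in time, in cell number and in the luciferase of the cells injected in bone, and their library names begin differently. No test was made between them.

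Scx was the 1 gene of the set called with IL-27 under the skin. Scx had 106 and 127 counts with the empty vector and 3 and 4 counts with IL-27, a ratio of 0.0290 (95% exact Poisson interval 0.0115 to 0.0606, counting error only). The log2 fold change was -5.04 (SE 0.84, adjusted p = 0.00690), and without replicate 1 of the empty vector it was -4.96 (adjusted p = 0.0566). Scx is rich in G and C, at 61.3% of its longest transcript, and after correction for GC content and transcript length the log2 fold change was -2.12 (adjusted p = 0.154). Some genes of the tumor line and of marrow separated the same tumors. Hras, whose activated form was added to the line, had 163 and 182 counts with IL-27 and 1412 and 3689 with the empty vector, and Krt8 had 159 and 335 against 1532 and 5365. Epcam and Krt18, also epithelial markers, overlapped, at 0.119 to 0.193 against 0.0932 to 0.235 CPM and 0.131 to 0.413 against 0.306 to 1.35 CPM. Of 6 marrow granulocyte genes tested, 5 rose (median 5.28), and the 8 genes of that list summed to 37.1 and 38.0 CPM with IL-27 and 0.867 and 1.97 CPM with the empty vector, where Mpo, Elane, Ltf and Camp were at 0. Their part in the Scx difference was not tested.

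Penk (-1.07, SE 0.44, adjusted p = 0.135) and Comp (-3.87, SE 1.43, adjusted p = 0.102) were lower and Prg4 (0.62, SE 0.39, adjusted p = 0.290) and Synpo2 (1.91, SE 0.97, adjusted p = 0.205) higher without overlap in the IL-27 tumors under the skin, and Fmod and Thbs4 overlapped. Leaving out 1 tumor moved Prg4 between 0.29 and 1.03 and Synpo2 between 1.05 and 4.50, the last without replicate 2 of the empty vector, where Synpo2 was called (adjusted p = 0.0112). Comp was at 0 counts in replicate 1 with IL-27, and leaving out 1 tumor moved it between -9.8 and -2.89. With the muscle mean as a covariate Comp changed sign. Tnmd had 28 counts in 1 IL-27 tumor and 0 in the other 3 tumors. The 1 of 7 genes called compares with 20% of 19360 genes in either direction and 16.5% in the lower direction. Without overlap, 31.6% of all genes were higher and 35.3% lower. Of other genes, 4 of 15 tendon and ligament genes rose and 0 fell, and 4 of 12 proteoglycans rose and 0 fell. Of 16 synovium and joint surface genes 2 rose and 1 fell, and of 11 Synpo2 partners 2 rose and 6 fell. Of 14 TGF-beta genes 0 rose and 3 fell, and of 3 thrombospondins 0 rose and 1 fell. Fibroblast markers (2 rose, 3 fell), smooth muscle and pericyte markers (1 rose, 3 fell) and endothelial markers (0 rose, 2 fell) had 10 tested each. Of 22 muscle markers, 19 rose and 1 fell, and their mean was 3.73 and 4.98 log2 CPM with IL-27 and -2.07 and -0.46 with the empty vector.

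Between genes, levels were compared as mean CPM per kilobase of exon. In control tumors at day 14, Penk was highest at 25.5 CPM per kilobase, followed by Thbs4 at 3.94, Scx at 1.44, Prg4 at 0.389, Fmod at 0.367, Synpo2 at 0.300 and Comp at 0.0764. In cabo tumors the order was Penk at 70.6, Thbs4 at 32.6, Prg4 at 7.40, Fmod at 7.08, Scx at 1.56, Synpo2 at 1.46, Tnmd at 0.380 and Comp at 0.180 CPM per kilobase. Penk thus led the set on this scale in both groups, and Prg4 and Fmod lay below Scx in controls and above it in cabo tumors.

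Across the 8 bone groups, Prg4 and Thbs4 had their highest mean in the cabo group at day 14, and the next group, IL-27+cabo at day 14, did not overlap with it. Penk and Synpo2 had their highest means in the IL-27+cabo group at day 14, which overlapped with the cabo group at day 14, and those 2 groups did not overlap with the group after them. Fmod was highest in the cabo group at day 14, at 23.4 ± 4.87 CPM (SD, n = 3), and overlapped with IL-27+cabo at day 14 through 1 tumor, mouse 20. Prg4, Fmod and Thbs4 had their lowest means in the EOS control group, at 0.241 ± 0.0128, 0.0989 ± 0.0170 and 2.50 ± 0.245 CPM (SD, n = 2), and did not overlap with the group above it. For Scx, Comp and Tnmd every group overlapped with its neighbor in the order of means.

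Other genes of the same tissues were taken from fixed lists to see how far the set stands for them. Of 16 further tendon and ligament genes tested between cabo and control at day 14, 0 were called by edgeR, 6 had an unadjusted p under 0.05 and DESeq2 called 4. In this comparison 3523 of the 18627 genes tested had an unadjusted p under 0.05 and DESeq2 called 1500, the background for the counts of all lists. The median log2 fold change of that list was 0.42, against -0.01 over all genes tested. Tenascin C (Tnc, 0.72, SE 0.19), Col12a1 (0.57, SE 0.17) and Thbs2 (0.51, SE 0.14) were positive without passing, with adjusted p of 0.113, 0.141 and 0.118, while the tendon transcription factor Mkx was -0.18 (SE 0.21, adjusted p = 0.702).

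Of 17 synovium and joint surface genes, 0 were called, 4 had an unadjusted p under 0.05 and DESeq2 called 1, and the median was 0.08. Gdf5, a growth factor of the joint interzone, was the furthest from 0 there (3.84, SE 0.85, adjusted p = 0.0701). Of 12 small leucine-rich proteoglycans besides Fmod, 0 were called, with 2 at an unadjusted p under 0.05 and 2 called by DESeq2. Prelp was 0.85 (SE 0.19, adjusted p = 0.0736) and the abundant Dcn 0.26 (SE 0.14, adjusted p = 0.360). All 3 further thrombospondins tested were positive, with a median of 0.51, and 0 of 3 were called, with 3 at an unadjusted p under 0.05 and 2 called by DESeq2.

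Of 8 genes of the enkephalin and opioid list tested, 0 were called at day 14 by edgeR or by DESeq2, 0 had an unadjusted p under 0.05, and the median was 0.18. Cpe, an enzyme that trims the peptides, was -0.45 (SE 0.24, adjusted p = 0.343). Of 11 partners of Synpo2 at the Z-disc and actin fibers, 3 were called, all higher, 7 had an unadjusted p under 0.05, DESeq2 called 5, and the median was 0.46. Ldb3 (3.25, SE 0.53, adjusted p = 0.0295), Myot (5.44, SE 0.96, adjusted p = 0.0377) and Flnc (0.74, SE 0.14, adjusted p = 0.0434), proteins of the muscle Z-disc, rose, whereas the widely expressed Actn1 (0.06, SE 0.09, adjusted p = 0.762), Actn4 (-0.17, SE 0.11, adjusted p = 0.426) and Bag3 (-0.16, SE 0.15, adjusted p = 0.626) did not pass.

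Of 14 TGF-beta ligands, receptors and targets, 1 was called, the matrix protein Ltbp2 (0.92, SE 0.12, adjusted p = 0.0154). Of 10 fibroblast markers, 1 was called, the collagen gene Col3a1 (0.64, SE 0.11, adjusted p = 0.0376). Cartilage, another source of Prg4 and Comp, had 5 of 12 markers tested, with a median of -0.33, and 0 called, with 2 at an unadjusted p under 0.05 and by DESeq2. The summed level of the 12 cartilage markers was 133 to 190 CPM in cabo tumors and 141 to 294 CPM in controls at day 14, which overlap. Col9a1, Matn1 and Ucma were at 0 in all cabo tumors, and Col9a2 was at 0 in all controls.

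In the IL-27 arm at day 14, edgeR called 0 genes of the tendon, synovium and proteoglycan lists, DESeq2 called 0 as well, and 1, 1 and 2 genes had an unadjusted p under 0.05. Aspn (1.15, SE 0.33) and Lum (0.75, SE 0.31) had the smallest unadjusted p of the proteoglycans, Lum and Cilp (0.95, SE 0.42) of the tendon list, and Erg (-1.06, SE 0.42) and Dkk3 (0.83, SE 0.36) of the synovium list, each with an adjusted p of 0.916. Of the other lists of the set's pathways the smallest p belonged to the Z-disc proteins Synpo2l (2.54) and Actn2 (2.32), to the peptide-processing enzyme Cpe (-0.75) and the enkephalin-degrading Mme (0.87), and to Thbs1 (0.35) and Thbs2 (0.28), all as log2 fold changes that did not pass. Among muscle markers the median log2 fold change was 2.28 and all 22 were positive, against 1.26 for the 7 genes of the set and 0.27 for the 17 tendon and ligament genes. All 10 endothelial markers were negative there, with a median of -1.26, 8 at an unadjusted p under 0.05, 0 called by edgeR and 5 by DESeq2. At EOS the medians with cabo were 4.21 for muscle, 0.40 for the set and 0.31 for tendon and ligament.

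**Figure D3:**
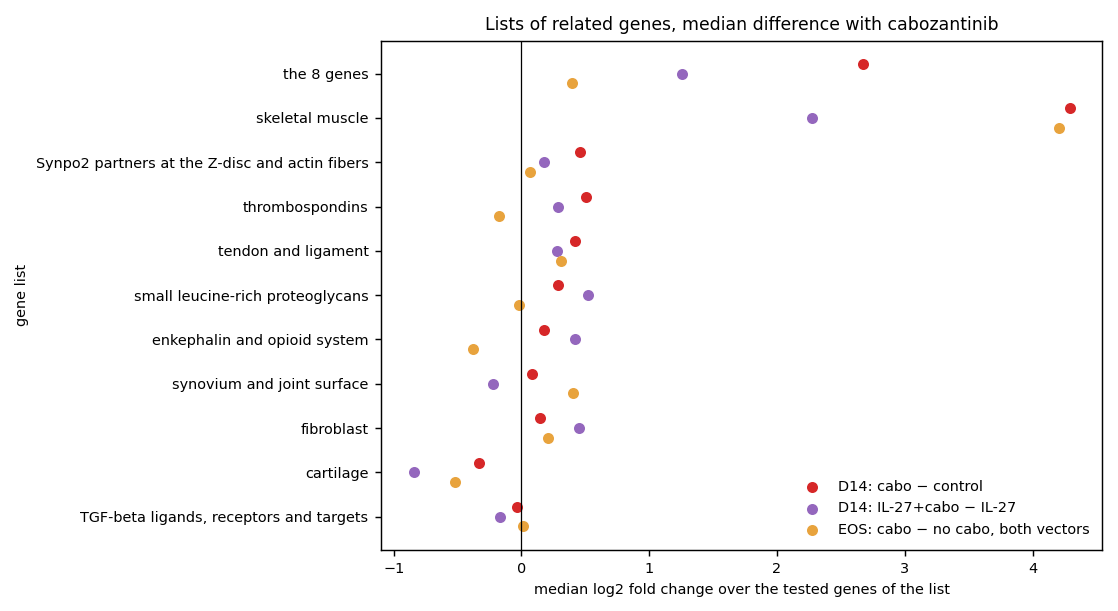
Median log2 fold change with cabo over the tested genes of each list, for day 14 cabo against control, day 14 IL-27+cabo against IL-27, and EOS over both vectors. Skeletal muscle lies at 2.28 to 4.29 in the 3 comparisons, while the tendon, synovium, proteoglycan and fibroblast lists lie within 0.52 of 0.

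From day 14 to EOS in the cabo tumors, where 2.09% of all genes were called, 4 of 16 further tendon and ligament genes fell and 0 rose, among them Cilp (-1.55, SE 0.26, adjusted p = 0.0405), Egr2 (-1.19, SE 0.15, adjusted p = 0.0165) and Dcn (-0.48, SE 0.08, adjusted p = 0.0433). The fourth, Kera, was at 0 in both EOS tumors. Of the proteoglycans, Prelp fell as well (-1.53, SE 0.20, adjusted p = 0.0206), and of the thrombospondins Thbs1 (-0.97, SE 0.18, adjusted p = 0.0494). Of 17 synovium and joint surface genes, 2 fell, Cilp and Has2 (-0.84, SE 0.15, adjusted p = 0.0494), and 1 rose, Erg (1.76, SE 0.17, adjusted p = 0.00798), which is also an endothelial gene. Of 10 endothelial markers, 8 rose over the same interval, and their summed level went from 130 to 147 CPM to 308 and 371 CPM.

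Skeletal muscle had the highest median log2 fold change of the fixed lists in all 3 comparisons with cabo. Its 22 markers summed to 1540 to 2309 CPM in the cabo tumors and 50.1 to 240 CPM in the controls at day 14, and none was at 0 in all tumors of either group. In the IL-27 arm the sums were 1986 to 5531 CPM with cabo and 77.9 to 2489 CPM without. At EOS they were 206 and 1246 CPM with cabo and 172 and 340 CPM with IL-27+cabo, with Myh7 at 0 in both of the latter, against 52.0 to 94.9 CPM in the 4 tumors without cabo, where Myh2 was at 0 in both controls. With the muscle mean as a covariate at EOS, the log2 fold change with cabo was 2.30 for Fmod, 0.63 for Prg4 and -0.66 for Thbs4, and 0 of the set were called. The muscle mean did not overlap between tumors with and without cabo there, so the fit cannot tell cabo and muscle apart.

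Over the 20 bone tumors, after the group mean was taken from each value, Thbs4 followed the muscle mean with a Pearson correlation of 0.926, Fmod with 0.823, Prg4 with 0.798, Comp with 0.658, Tnmd with 0.651 and Synpo2 with 0.636. For Penk the correlation was 0.139 and for Scx 0.127. Without the 2 tumors farthest from the median in muscle level, it was 0.871 for Thbs4, 0.607 for Prg4, 0.595 for Fmod, 0.408 for Synpo2 and 0.022 for Penk. The tumors share libraries and scaling across genes, and the values describe these tumors only.

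**Figure D4:**
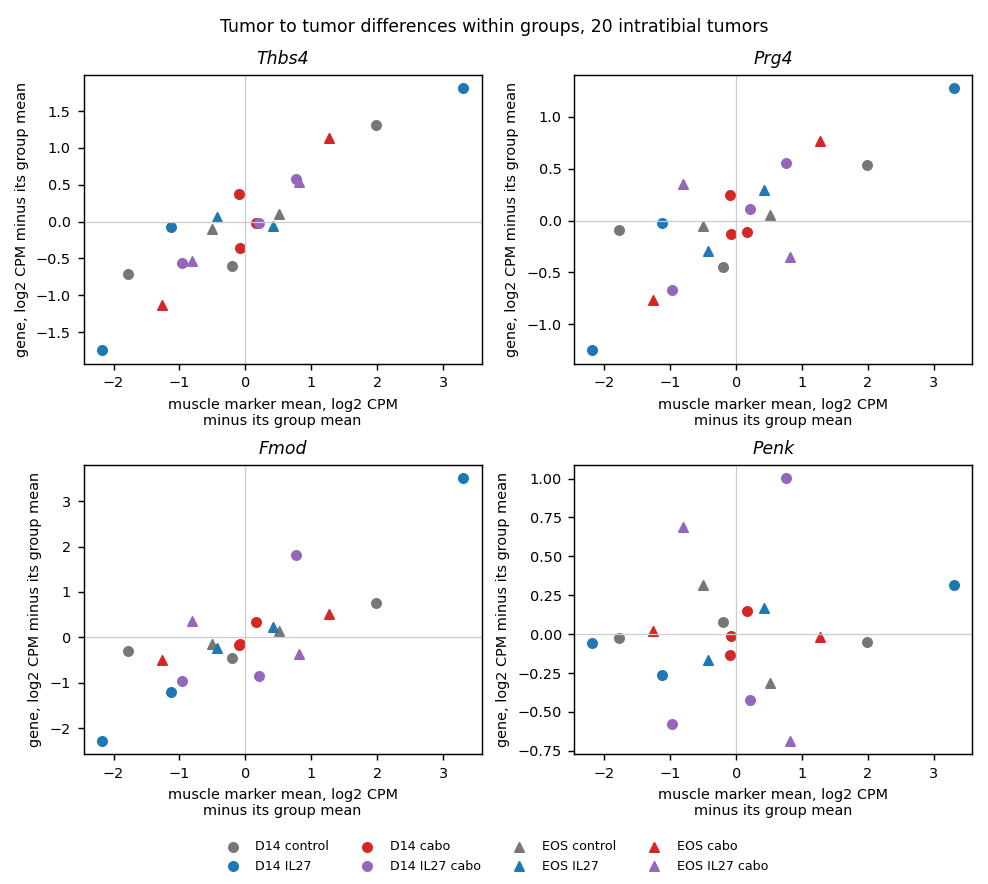
Each of the 20 bone tumors by its muscle marker mean (x axis) and its Thbs4, Prg4, Fmod or Penk level (y axis), both as log2 CPM minus the group mean; circles are day 14 and triangles EOS. Thbs4, Prg4 and Fmod increase along the muscle axis (correlations 0.926, 0.798 and 0.823) and Penk does not follow it (0.139).

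Within groups, the pairs of the set ranged widely. Prg4 and Thbs4 had a correlation of 0.862, Prg4 and Fmod 0.847, Fmod and Thbs4 0.778 and Tnmd and Fmod 0.863, over the same 20 tumors. Without the 2 tumors farthest from the median these were 0.723, 0.676, 0.526 and 0.679, and Tnmd was at 0 in most libraries. Penk had a correlation of 0.545 with Fmod, 0.558 with Tnmd and 0.096 with Thbs4. Penk and Synpo2 had a correlation of -0.360. Scx had a correlation of 0.606 with Tnmd and 0.496 with Penk, and these were 0.578 and 0.197 without the 2 tumors farthest from the median level of Tnmd or Penk.

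The genes most like the 3 that selected the set were taken by Pearson correlation of log2 CPM over the 20 bone tumors, among 13885 other genes with a mean log2 CPM above 0. These tumors include the day 14 cabo and control tumors that chose the genes, so a high value for genes that differ with cabo is partly fixed. For Prg4 they were Thbs4 (0.953), Fmod (0.926), Nkd2 (0.874), Arrdc4 (0.874) and F830016B08Rik (0.852), with 0.862, 0.847, 0.254, 0.518 and 0.445 within groups. For Penk they were Phyh (0.918), Gstt1 (0.909), Tmem176a (0.903), Itgb5 (0.895) and Tmem176b (0.894). Within groups the values for Penk were 0.789, 0.626, 0.955, 0.787 and 0.926, in the same order. For Synpo2 they were Myo18b (0.911), Phkg1 (0.890), Synm (0.888), Ip6k3 (0.871) and Rbm20 (0.847), with 0.736, 0.699, 0.792, 0.467 and 0.806 within groups. Spearman correlations of these 15 pairs over the same tumors lay between 0.832 and 0.961.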

How the data were processed

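Poly(A) RNA of 24 tumors was sequenced from stranded libraries. The authors deposited raw counts per gene for all tumors, and per the labels FastQC, HISAT2, StringTie and DESeq2 were used with build GRCh38, a human build, although the gene identifiers are of the mouse. The counting program and its strand setting are not given in the sources used here. Of 55401 identifiers, 55141 were named from GENCODE M21. Among counts from 1 to 20, 30.4% to 35.5% per library were multiples of 4, and the fits were repeated on counts divided by 4.

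Groups came from the labels. Some markers of the labelled cell type are not reported here. Each comparison used its own tumors in edgeR 4.0.16 (R 4.3.3): filterByExpr, TMM, quasi-likelihood F test, Benjamini-Hochberg adjustment over all genes tested. SE is the absolute log2 fold change over the square root of F. Every adjusted p is from edgeR unless DESeq2 (1.42.0) is named. Log2 CPM used a prior count of 2. Intervals and floors (3 counts per library) cover counting error only. The scripts were tested on simulated data.

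The genes, lists and comparisons were chosen with earlier results of these data known. The rule named all 8 genes, the 5 genes most like each of Prg4, Penk and Synpo2, and, per list, the 2 genes with the smallest p in IL-27+cabo against IL-27 at day 14 where none was called. List genes named for other comparisons were chosen after their values were seen. Alternatives were DESeq2, other scaling and filters, 1 fit of all groups, covariates, the study's limits for differential expression and leaving out each tumor.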

Additional observations from a re-analysis of the deposited data

Results flagged for a closer look

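The difference with the IL-27 vector had opposite signs for Scx in bone at day 14 and under the skin. All 3 IL-27 tumors of bone at day 14 were above all controls (log2 fold change 0.72), and both IL-27 tumors under the skin were below both tumors with the empty vector (log2 fold change -5.04). edgeR did not call the bone value, and the subcutaneous value was -2.12 (adjusted p = 0.154) after correction for GC content and length. Of all genes tested, 2.81% were higher without overlap in bone and 35.3% lower under the skin. At EOS in bone, the log2 fold change of Scx with IL-27 over both drugs was -0.036 (SE 0.269), and the tumors overlapped. The difference between the sites was not tested.

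From day 14 to EOS, Synpo2 was higher in every control tumor (log2 fold change 1.39) and lower in every cabo tumor (-1.13) and every IL-27+cabo tumor (-2.37). Synpo2 was chosen for low values in the day 14 controls and high values in the day 14 cabo tumors, so the signs in those groups are partly fixed by the choice, and edgeR called none of the 3 changes. Leaving out 1 tumor moved the values between 0.55 and 1.91 in controls, -1.88 and -0.65 with cabo and -2.62 and -2.03 with IL-27+cabo. The difference between the groups over time was not tested. No group had 4 or more tumors, so single tumors were not tested for standing apart.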

How the results depend on the processing

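Of 46 fold changes given for single genes, 564 values were computed under alternatives: 498 kept their direction and side of the threshold, 22 lost the call, 37 gained it and 7 changed sign. Most of the 46 were not called in the fit reported, so keeping the side of the threshold mostly meant staying uncalled. Only the few called values could lose a call. With the muscle mean as a covariate, 0 of the set were called for cabo against control at day 14 and for IL-27 under the skin, and 2 for cabo EOS against day 14, where the same fits called 0, 39 and 36 of all genes. The sign changed in that fit for Thbs4 in IL-27+cabo against control (-1.28), Thbs4 with cabo at EOS (-0.66), Fmod (0.65) and Thbs4 (1.34) in IL-27+cabo over time, and Comp under the skin (2.60). In each of these comparisons the muscle mean did not overlap between the sides, so the fit cannot tell the contrast and muscle apart. With all 10 groups in one fit, 1 gene each was called in cabo against control, IL-27+cabo against IL-27 and against control at day 14, and in cabo and IL-27+cabo over time. In the same order that fit called 39, 39, 92, 47 and 59 of all genes. DESeq2 called 1 in IL-27+cabo against IL-27, 4 against control, 1 against cabo, 3 with cabo at EOS, 4 in control and 1 in IL-27+cabo over time, and 3 under the skin. Of all genes it called 167, 484, 5, 1357, 872, 330 and 6172 there. The study's limits for differential expression, which use unadjusted p, gave 2, 5, 1, 3, 3 and 5 for these intratibial comparisons, 2 in IL-27 over time, 2 in the interaction and 3 under the skin. Of all genes these limits gave 438, 682, 193, 694, 752, 611, 322, 476 and 6856.

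Leaving out 1 tumor gave 0 to 2 genes for IL-27+cabo against control (2 without mouse 20), 0 to 2 with cabo at EOS (1 without IL-27+cabo mouse 16, 2 without cabo mouse 23) and 0 to 2 under the skin. It moved Penk with cabo at EOS from -0.23 to 0.45 and Prg4 in the interaction from -0.22 to 1.09. Leaving out mouse 20 alone gave 0 genes in IL-27+cabo against IL-27, and leaving out mouse 20 with mouse 8, chosen after seeing the data, gave 2. Under the skin, counts divided by 4 gave 2 genes and correction for GC content and length gave 0, where the same fits called 4488 and 1668 of all genes. The subcutaneous tumors share replicate numbers only as numbers (correlation of deviations 0.021 over 13888 genes). A fit with the replicate block called 3 genes of the set and 4248 of all genes. Intratibial mice carry different numbers in each group, so no block was fitted there. The causes of these changes were not tested. Over all genes, counts ranged from 0 to 1500 for cabo against control at day 14 (352 in the fit reported), 0 to 1357 with cabo at EOS (0), 36 to 1739 for cabo over time (400) and 39 to 7076 under the skin (3880). The other comparisons gave 0 to 438 for IL-27+cabo against IL-27 (0), 0 to 682 for IL-27+cabo against control (12), 0 to 100 for IL-27 against control (0), 0 to 193 for IL-27+cabo against cabo (0), 0 to 159 for IL-27 at EOS (0), 0 to 872 for control over time (20), 0 to 322 for IL-27 over time (0), 0 to 611 for IL-27+cabo over time (0) and 0 to 476 for the interaction (0).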
